A study of Mus musculus with 12 samples.

Results

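A group of 10 transcription factor genes of the ETS family were followed across normal and diseased thymocytes: Ets1, Ets2, Fli1, Etv5, Etv6, Elf1, Elf4, Spib, Elk3 and Gabpa. They were taken by symbol from the platform annotation, with the array row of the highest mean standing for each gene, and made up 10 of the 19938 genes with a row. The samples were 12 mouse arrays in 3 groups, all on the C57/BL6 strain. The first group was wild-type (WT) DN3 thymocytes (3 arrays), an early CD4- CD8- stage at which the T cell receptor beta chain is assembled and tested, and the second was DN3 thymocytes from TCF-1 knockout (KO) mice (3 arrays), both from animals 8 to 12 weeks old. The third was T cell lymphoma cells sorted from the thymuses of diseased TCF-1 KO mice aged 12 to 40 weeks (6 arrays). The lymphomas and the KO DN3 cells therefore shared the loss of TCF-1, a transcription factor of early T cell development, and the lymphomas came from an older age range. The labels call the arrays of a group biological replicates and do not say whether a replicate was 1 mouse or a pool, nor which exons the knockout removes.

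ETS factors share a winged helix-turn-helix domain that reads a GGAA core in DNA, and many are expressed together in blood cells. Ets1, Fli1, Elf1 and Gabpa are activators used throughout lymphoid cells, with Gabpa, the DNA-binding subunit of GABP, also serving housekeeping and mitochondrial genes. Etv6 and Elk3 act mainly as repressors. Etv5, of the PEA3 group, is induced downstream of receptor tyrosine kinase, RAS and ERK signalling and is a known gene of gamma-delta T cells that make interleukin-17. Spib is related to PU.1 and is best known from B cells and plasmacytoid dendritic cells.

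Values below are log2 signals as the authors deposited them, so 1 unit is a doubling, and levels are compared only within a gene because each row has its own probes. All 10 members lay above the filter on dim genes, and 14953 genes were tested. Array medians ran from 5.3 to 5.39, and the median gene had an SD of 0.126 among WT DN3, 0.162 among KO DN3 and 0.153 among lymphoma arrays. On 34 rows without a gene name, a set of 4 arrays (WT DN3 1, KO DN3 1, lymphoma 1 and lymphoma 2) stood apart from the other 8, and the labels do not say why. By Xist and Y-linked signal all 3 WT arrays were female, and KO DN3 3 and lymphomas 1, 2 and 6 were male. The 9 DN3 markers with a row averaged 8.97 to 9.06 on the WT, 8.69 to 8.85 on the KO and 8.2 to 8.78 on the lymphoma arrays. By the limma test described below, 1 of the 9 was called lower in KO against WT, beside 1.42% of all genes. In lymphoma against WT 4 were called lower, beside 2.86%. Against KO 2 were called lower and 1 higher, beside 2.12% and 4.5%. Whether the lymphomas matched the DN3 stage was not tested. The samples are bulk populations, so fewer cells of a type and less RNA per cell cannot be told apart.

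**Figure D1:**
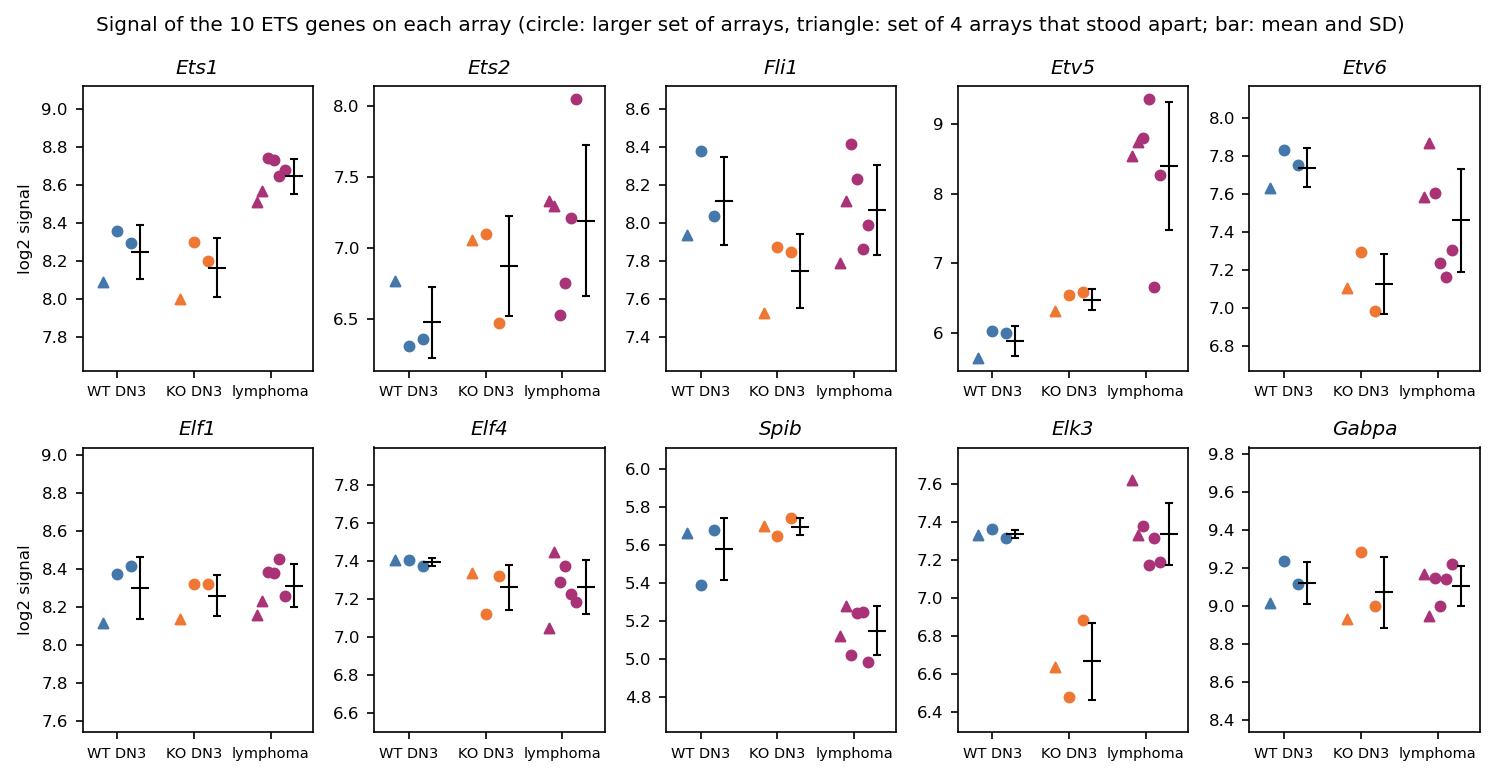
Log2 signal (vertical axis, scaled separately for each gene) of the 10 ETS genes on each array of WT DN3, KO DN3 and lymphoma; circles and triangles mark the larger set and the set of 4 arrays that stood apart, and the bars give the mean and SD. Elk3 is low only on the 3 KO DN3 arrays (6.48 to 6.88), and Etv5 is high on 5 lymphomas, with lymphoma 5 at 6.66.

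The first comparison asked what changed in DN3 cells that lack TCF-1. The repressors Elk3 and Etv6 fell in KO DN3 cells, to 0.628 and 0.654 of their WT signals, and no member passed the test upwards. The test was limma's moderated test on the arrays of the 2 groups, with Benjamini-Hochberg adjustment over all genes tested and a call at an adjusted p under 0.05. The 2 calls were 20% of the members, beside 1.99% of all genes called in either direction, 0.568% called higher and 1.42% called lower. The members were chosen with results of these arrays known, so this share is a description. With the replicate number as a block, 30% of the members were called (Elk3, Etv6 and Etv5) beside 9.23% of all genes. The contrast with all genes was then narrower. The block takes same-numbered DN3 arrays as pairs, which the labels do not state. The median difference of the members was -0.07, against 0.03 for all genes tested.

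Elk3 is a ternary complex factor that, like its relatives, works beside serum response factor, and represses until ERK phosphorylates it. Its signal was 7.33, 7.36 and 7.32 on WT DN3 arrays 1 to 3, and 6.63, 6.48 and 6.88 on KO DN3 arrays 1 to 3. The WT arrays lay close together, and every KO array was below all of them. The difference was -0.67 ± 0.13 (SE; 95% interval -0.95 to -0.39; limma adjusted p = 0.0244). Within the set of 4 arrays the difference was -0.69 (1 array against 1), and in the larger set it was -0.66 (2 against 2). The call was lost without WT DN3 1 (limma adjusted p = 0.0852), WT DN3 2 (0.133) or WT DN3 3 (0.0796), and likewise after repeated quantile normalisation (0.077) or in the larger set alone (0.0925). The difference stayed between -0.58 and -0.78 over all alternatives.

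Etv6, a repressor needed by blood stem cells and often rearranged in human leukaemia, gave 7.63, 7.83 and 7.75 on the WT DN3 arrays and 7.10, 7.29 and 6.98 on the KO DN3 arrays. Again the groups did not overlap. The difference was -0.61 ± 0.12 (SE; 95% interval -0.89 to -0.34; limma adjusted p = 0.0333). It was -0.53 within the set of 4 arrays and -0.66 in the larger set. Etv6 lost its call without any 1 of the 3 WT arrays (limma adjusted p from 0.0788 without WT DN3 1 to 0.185 without WT DN3 2, and 0.1 without WT DN3 3). It also lost it without KO DN3 1 (0.059) or KO DN3 3 (0.15), after repeated quantile normalisation (0.0658), in 1 fit to all 12 arrays (0.0692) and in the larger set alone (0.0797).

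The 250 bases before the annotated start of these genes are shown because they are the promoters of the members that differed between genotypes and, for Etv5, of the member that differed most in the lymphomas. All are from RefSeq on GRCm38.p6, on the strand of the gene, 5′ to 3′, with ETS motif matches in capitals. The table gave such windows for 8 of the 10 members (11 starts), and Ets1 and Fli1 were not among them.
Elk3, minus strand, chr10:93311160-93311409: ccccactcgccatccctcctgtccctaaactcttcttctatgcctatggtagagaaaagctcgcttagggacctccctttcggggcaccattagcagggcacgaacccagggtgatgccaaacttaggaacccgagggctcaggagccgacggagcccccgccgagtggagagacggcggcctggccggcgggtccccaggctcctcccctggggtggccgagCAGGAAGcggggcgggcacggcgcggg
Etv6, plus strand, chr6:134035450-134035699: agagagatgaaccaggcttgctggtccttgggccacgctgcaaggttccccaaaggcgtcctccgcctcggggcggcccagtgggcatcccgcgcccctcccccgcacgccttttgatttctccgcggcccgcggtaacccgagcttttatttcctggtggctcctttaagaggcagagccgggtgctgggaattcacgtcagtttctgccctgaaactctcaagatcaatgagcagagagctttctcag
Etv5, minus strand, chr16:22439571-22439820: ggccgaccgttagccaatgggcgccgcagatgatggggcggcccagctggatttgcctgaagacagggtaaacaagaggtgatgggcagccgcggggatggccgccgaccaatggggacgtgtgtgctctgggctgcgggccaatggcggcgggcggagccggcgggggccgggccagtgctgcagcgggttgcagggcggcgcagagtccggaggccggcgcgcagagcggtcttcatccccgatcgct

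The windows were searched on both strands for the TCF/LEF letters CTTTGAA or CTTTGAT or CTTTGTA or CTTTGTT, which 14.8% of 32851 promoter windows of this length hold. They were also searched for the ETS letters CCGGAAG and CAGGAAG, which 17% hold. The letters were chosen after these windows had been seen, and no match of one motif overlapped a match of the other here. Elk3 held 1 ETS match, CAGGAAG, whose first base lies at -27 from the start. Etv6, Spib and both starts of Etv5 held no match to either motif. Among members that were not called, Gabpa held 2 ETS matches, at -178 and -93, and the second start of Elf1 held TTCAAAG, the reverse complement of a TCF/LEF motif, at -212. A match is a run of letters in the window and was not tested as a binding site.

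Etv5 was the member closest to a call in the other direction. Its signal was 5.64, 6.03 and 6.00 on the WT DN3 arrays and 6.31, 6.54 and 6.59 on the KO DN3 arrays, so every KO array was above every WT array. The difference was 0.59 ± 0.14 (SE; 95% interval 0.29 to 0.90; limma adjusted p = 0.0616). With the replicate block the same difference gave a limma adjusted p of 0.00431, and with the array set as a term 0.00783. The second row that the annotation gives to Etv5 was also higher in KO DN3 cells, by 0.65. Without KO DN3 1 the difference was 0.68 and the call was made (limma adjusted p = 0.0443), whereas the other 5 fits that left out 1 array gave no call (0.0947 to 0.231). A single fit to all 12 arrays gave 0.532.

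The other members did not pass the test in KO DN3 cells. Fli1, an activator that lies next to Ets1 on chromosome 9 with no coding gene between, gave 7.94, 8.38 and 8.04 in WT and 7.53, 7.88 and 7.85 in KO cells (difference -0.37 ± 0.15 SE; limma adjusted p = 0.255). Its groups did not overlap, as was the case for 5 of the 10 members (Elk3, Etv6, Etv5, Fli1 and Elf4), beside 22% of all genes tested. Ets2, an ERK-responsive relative of Ets1, was at 6.77, 6.31 and 6.36 in WT and at 7.05, 7.10 and 6.47 in KO cells, and KO DN3 3 lay within the WT range (limma adjusted p = 0.318). Elf4, which restrains the proliferation of CD8 T cells, differed by -0.13 (95% interval -0.38 to 0.12). Spib differed by 0.12, Ets1 by -0.08, Gabpa by -0.05 and Elf1 by -0.04, and the 95% intervals of these 4 lay between -0.37 and 0.39. The signs of Ets1, Elf1 and Gabpa turned under repeated quantile normalisation (0.042, 0.08 and 0.005).

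In the lymphomas, compared with WT DN3 cells, Etv5 and Ets1 rose and Spib fell. These were 3 calls, 30% of the members, beside 5.82% of all genes called in either direction, 2.96% higher and 2.86% lower. The same 3 were the members whose lymphoma and WT arrays did not overlap, beside 10.3% of all genes. Compared with KO DN3 cells, Etv5, Ets1 and Elk3 rose and Spib fell, which is 40% of the members, beside 6.62% of all genes in either direction, 4.5% higher and 2.12% lower. Those 4 were again the members without overlap, beside 13.6% of all genes. The 2 comparisons share the lymphoma arrays and are not independent. The median difference of the members was -0.01 from WT and 0.32 from KO DN3 cells, against -0.01 and -0.03 for all genes tested.

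Etv5 had the widest change. Its lymphoma signals were 8.55, 8.74, 8.81, 9.37, 6.66 and 8.27 for lymphomas 1 to 6, with a median of 8.65. Of the 6, 5 stood far above the DN3 arrays, whereas lymphoma 5 was only just above the highest KO DN3 array at 6.59. Against WT DN3 the difference was 2.51 ± 0.44 (SE; 95% interval 1.55 to 3.47), which is 5.7-fold (limma adjusted p = 0.00412). Against KO DN3 it was 1.92 ± 0.43 (SE; 95% interval 0.98 to 2.86), or 3.78-fold (limma adjusted p = 0.022).

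Lymphoma 5 widened the spread of Etv5 more than it moved the mean. Without it the difference from WT was 2.86 (limma adjusted p = 1.7e-05) and that from KO was 2.27 (limma adjusted p = 0.00014). The SD of 0.93 among the lymphomas was larger than that of 99.7% of genes tested. The call against KO DN3 was lost without KO DN3 1 (0.0899) or KO DN3 3 (0.0827), and with a trended robust variance (0.0535) or array weights (0.0565). The call against WT held without each array in turn. In the set of 4 arrays the lymphomas were 3.01 above WT and 2.33 above KO. In the larger set, which holds lymphoma 5, they were 2.27 above WT (limma adjusted p = 0.0792) and 1.71 above KO (0.177).

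Both rows annotated to Etv5 moved in the same order. The second row averaged 5.29 ± 0.19 (SD, n = 3) in WT DN3, 5.94 ± 0.12 (SD, n = 3) in KO DN3 and 7.11 ± 0.61 (SD, n = 6) in the lymphomas. The lymphomas were thus 1.82 above WT and 1.17 above KO on that row, a smaller difference than on the row used. Lymphoma 5 was the lowest lymphoma on both rows.

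**Figure D2:**
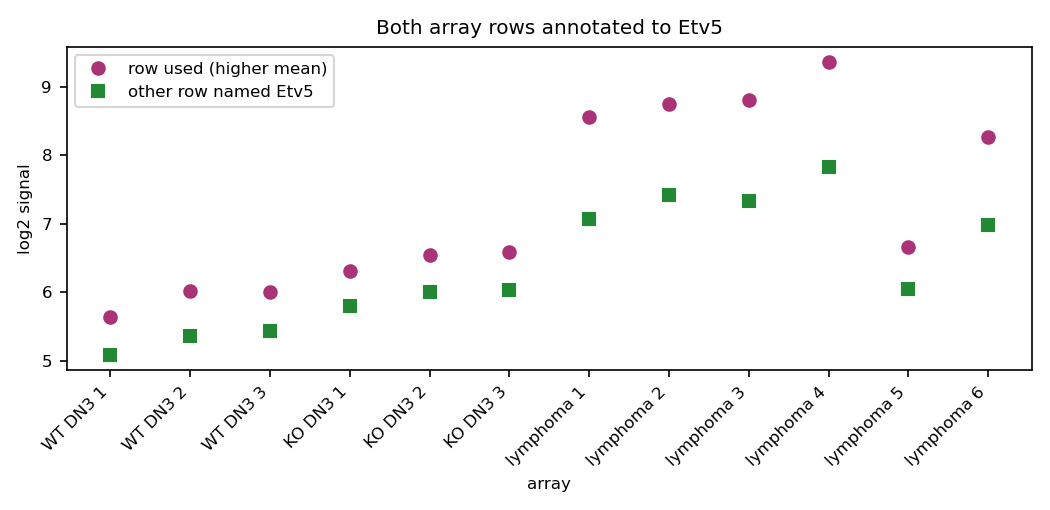
Log2 signal (vertical axis) on each of the 12 arrays (horizontal axis) for both rows annotated to Etv5, the row used as circles and the other as squares. On both rows the groups rank WT DN3, KO DN3, lymphoma, with means of 5.89, 6.48 and 8.40 on the row used, and lymphoma 5 lies near the KO DN3 arrays.

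Of the markers of gamma-delta T cells, in which Etv5 is known, 2 of 5 tested were called higher in the lymphomas against WT DN3, beside 2.96% of all genes, and 1 of 5 against KO DN3, beside 4.5%. The list had 6 of 8 genes with a row, of which Il23r was below the filter, and the mean level of the 5 tested ran from 5.93 to 6.05 on WT, 6.17 to 6.44 on KO and 6.36 to 7.33 on lymphoma arrays. Icos, a costimulatory receptor, rose by 1.63 (limma adjusted p = 0.000814), and Cd163l1 rose by 1.10 (limma adjusted p = 0.00913) against WT DN3. Cd163l1 was already 1.03 higher in KO than in WT DN3 cells (limma adjusted p = 0.0147). Sox13 (0.35), Maf (0.43) and Blk (0.74) were above WT DN3 without passing the test. The part of such cells in the Etv5 signal was not tested.

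Ets1, an activator needed for beta selection and T cell survival, was higher in every lymphoma than on every DN3 array. Its signal was 8.09, 8.36 and 8.29 in WT DN3 and 8.00, 8.30 and 8.20 in KO DN3 cells. In the lymphomas the lowest value was 8.51, the median 8.66 and the highest 8.74. The rise was 0.40 ± 0.09 (SE; limma adjusted p = 0.0195) against WT and 0.48 ± 0.10 (SE; limma adjusted p = 0.012) against KO DN3, or 1.32-fold and 1.4-fold.

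The lymphomas were close together in Ets1, with an SD of 0.093, which only 16.2% of genes tested were below. Its difference from WT was 0.45 in the set of 4 arrays and 0.37 in the larger set. In the larger set alone the calls against WT and KO DN3 were lost (limma adjusted p = 0.0776 and 0.0576). The call against WT was lost without WT DN3 1 (difference 0.32; limma adjusted p = 0.122) or WT DN3 3 (0.42; 0.0593). The call against KO was lost without KO DN3 1 (0.40; 0.0597). Repeated quantile normalisation ended both calls (0.38; 0.0666 against WT, and 0.34; 0.0923 against KO). In Fli1, its chromosomal neighbour, the lymphoma values ran from 7.79 through a median of 8.05 to 8.42. Fli1 differed by -0.05 from WT (95% interval -0.36 to 0.27) and by 0.32 from KO DN3 (95% interval 0.01 to 0.63; limma adjusted p = 0.191), and neither difference was called.

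Spib fell in the lymphomas. Its signal was 5.66, 5.39 and 5.68 in WT DN3 and 5.70, 5.65 and 5.74 in KO DN3 cells, and in the lymphomas it ran from 4.98 through a median of 5.18 to 5.28. All 6 lymphomas were below all 6 DN3 arrays, at a level near the array medians. Its mean over all arrays, 5.39, was at percentile 48.4 of genes with a row, under the alternative filter at the 50th percentile (5.44). Whether the Spib signal at this level was above background was not tested. The difference was -0.43 ± 0.10 (SE; limma adjusted p = 0.0259) against WT and -0.55 ± 0.10 (SE; limma adjusted p = 0.00553) against KO DN3. The call against WT was lost without WT DN3 1 (-0.39; 0.135) or WT DN3 3 (-0.38; 0.141) and with sex as a term (-0.41; 0.0739). It was also lost in the larger set alone (-0.41; 0.16) and with the replicate block (-0.44; 0.111). The call against KO held without each array in turn. The difference from WT was -0.46 in the set of 4 arrays and -0.41 in the larger set.

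Of the B cell markers, 1 of 3 tested, Cd79b, was called lower in the lymphomas in both comparisons, beside 2.86% of all genes against WT and 2.12% against KO DN3. Of 7 listed, 6 had a row, and Cd79a, Ms4a1 and Ebf1 lay below the filter. The mean level of the 3 tested ran from 5.52 to 5.55 on WT, 5.42 to 5.80 on KO and 5.02 to 5.25 on lymphoma arrays. Cd79b, a subunit of the B cell receptor, fell by 0.95 against WT (limma adjusted p = 0.000216) and by 0.82 against KO DN3 (limma adjusted p = 0.00186). Pax5 and Blnk differed from WT by -0.09 and -0.07, both uncalled. The 3 below the filter averaged 4.10, 3.85 and 4.35 in WT and 4.13, 3.94 and 4.49 in lymphoma arrays. None of the 5 plasmacytoid dendritic cell markers was called in the lymphomas, beside 5.82% of all genes against WT and 6.62% against KO DN3. The part of either cell type in the Spib signal was not tested.

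Elk3 was high again in the lymphomas. Its lymphoma values ran from 7.17 through a median of 7.32 to 7.62, against 6.48 to 6.88 in KO DN3 cells, with no overlap. The difference from KO DN3 was 0.67 ± 0.12 (SE; 95% interval 0.41 to 0.93; limma adjusted p = 0.00681) and the call held without each array in turn. The difference from WT DN3 was 0.00 (95% interval -0.22 to 0.22). Within the set of 4 arrays the lymphomas were 0.84 above KO (2 arrays against 1). In the larger set alone they were 0.58 above, and the call was lost (limma adjusted p = 0.0618).

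Etv6 was more mixed. Lymphomas 1, 2 and 3 were at 7.58, 7.87 and 7.61, near the WT arrays, and lymphomas 4, 5 and 6 were at 7.24, 7.17 and 7.31, within or next to the KO DN3 range of 6.98 to 7.29. Neither the difference from WT (-0.28; 95% interval -0.59 to 0.04) nor that from KO DN3 (0.33; 95% interval 0.01 to 0.66; limma adjusted p = 0.196) passed the test. With the replicate number as a block, the latter was 0.56 and was called (limma adjusted p = 0.0253). The lymphoma numbers do not pair with DN3, and no DN3 array has the numbers 4, 5 or 6. That value therefore came from lymphomas 1, 2 and 3 alone, which lay near the WT arrays.

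Ets2 varied widely between tumours. Lymphomas 1 to 6 were at 7.33, 7.29, 6.53, 6.75, 7.21 and 8.05, and their SD of 0.53 exceeded that of 98.5% of genes tested. The difference from WT was 0.72 ± 0.27 (SE; 95% interval 0.14 to 1.30; limma adjusted p = 0.188). The male lymphomas 1, 2 and 6 were the 3 highest, and with sex as a term the difference was 0.35 (limma adjusted p = 0.492). As all WT arrays were female, that value sets the female lymphomas 3, 4 and 5 against WT. KO DN3 3, the only male DN3 array, was the lowest KO array at 6.47. Whether sex lies behind the difference was not tested. Lymphoma 6, the highest in Ets2, was not the highest in Etv5, and lymphoma 5, the lowest in Etv5, was near the middle in Ets2.

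Gabpa, Elf1 and Elf4 were not called in any comparison. Gabpa stayed between 8.93 and 9.29 on all 12 arrays, with differences of -0.02 from WT (95% interval -0.21 to 0.18) and 0.03 from KO (-0.19 to 0.26). Elf1, related to Elf4, stayed between 8.11 and 8.45, with differences of 0.01 (-0.20 to 0.22) and 0.05 (-0.16 to 0.26). Elf4 differed by -0.13 from WT (-0.34 to 0.07) and by 0.00 from KO (-0.23 to 0.23). These intervals reach 0.34 below and 0.26 above the DN3 level, so they bound the differences and do not show that the levels were equal. Elf4 is on the X chromosome, and its level was 7.13 to 7.41 on the 8 arrays with high Xist and 7.05 to 7.45 on the 4 with high Y-linked signal.

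**Figure D3:**
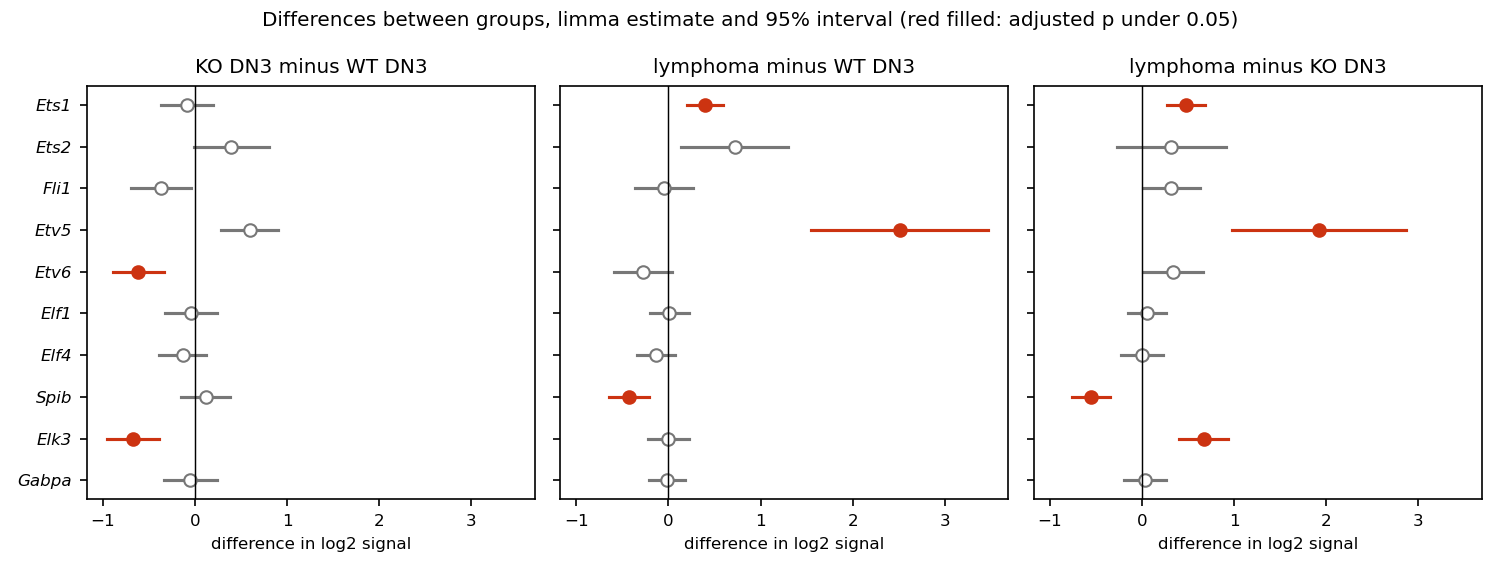
Difference in log2 signal (horizontal axis) with its 95% interval for each member (vertical axis) in the 3 comparisons; red filled points had a limma adjusted p under 0.05. Elk3 is lower in KO DN3 (-0.67) and back at the WT level in lymphomas, while Etv5 shows the widest intervals (1.55 to 3.47 against WT DN3).

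The rest of the ETS family gave fewer calls than the members, which were chosen with results of these arrays known. Of 16 further genes, 15 had a row and 12 passed the filter, with Etv1, Elf3 and Spic below it. None of the 12 was called by limma in KO against WT DN3 cells, beside 1.99% of all genes, and their median difference there was 0.06. In the lymphomas 2 were called against WT, beside 5.82% of all genes in either direction. Against KO DN3 1 was called, beside 6.62%. Erg, a stem cell and progenitor factor that is normally silenced as T cells commit, fell in the lymphomas. It gave 7.08, 6.92 and 6.91 in WT DN3, 6.996, 6.20 and 6.58 in KO DN3 and 5.33 to 5.81 in the lymphomas (median 5.65). The fall was 1.34 ± 0.10 (SE; limma adjusted p = 9.48e-06) against WT and 0.97 ± 0.16 (SE; limma adjusted p = 0.00385) against KO, with all lymphomas below all DN3 arrays, and both calls held without each array in turn.

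Elf2, a relative of Elf1, fell by 0.50 against WT DN3 (limma adjusted p = 0.00461; 6.74 to 6.94 in WT, 6.16 to 6.47 in lymphomas). Erg lies next to Ets2 on chromosome 16 with no coding gene between, and Ets2 did not fall: it was 0.72 higher, uncalled, where Erg was 1.34 lower. The remaining 10 tested ETS genes were uncalled in every comparison. Over the list, the median difference was -0.02 in lymphoma against WT and -0.13 against KO DN3.

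The list of partners that bind DNA or act with ETS factors had 12 symbols. Of these, Mkl1 and Mrtfa name 1 gene, and all 11 genes had a row and were tested. In KO DN3 cells 1 of the 11 was called, beside 1.99% of all genes. Jun, the AP-1 subunit that ETS factors often bind beside, fell by 0.88 in KO DN3 cells (limma adjusted p = 0.0244), from 7.24, 7.54 and 6.81 to 6.37, 6.32 and 6.24. That call was lost without WT DN3 1 (0.0838), WT DN3 2 (0.118) or KO DN3 3 (0.123), and in 1 fit to all 12 arrays (0.258). Gabpb1, which carries the activation domain of GABP, differed by -0.05 in KO against WT DN3 and by 0.05 in lymphoma against KO DN3, both uncalled. No partner was called by limma in the lymphomas, beside 5.82% of all genes against WT and 6.62% against KO DN3. Jun itself ranged from 5.94 to 7.99 among the lymphomas.

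Genes that follow ERK signalling, the pathway upstream of Etv5, Ets2 and Elk3, were tested as a list of 18, all with a row above the filter. None was called by limma in KO against WT DN3 cells, beside 1.99% of all genes. Against WT DN3, 6 rose and none fell in the lymphomas, and against KO DN3, 3 rose and none fell, beside 2.96% and 4.5% of all genes called higher. The list medians were 0.06 and 0.05. Phlda1 rose most, by 1.61 against WT (limma adjusted p = 3.1e-05) and 1.21 against KO (limma adjusted p = 0.000784), from 5.54 to 5.98 in WT to 7.02 to 7.65 in lymphomas. Egr1, an immediate early gene, rose by 0.92 and 0.79, and Spred2, a feedback inhibitor of RAS and ERK, rose by 0.66 and 0.86.

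Ccnd1, cyclin D1, rose by 1.14 against WT (limma adjusted p = 0.0191) and was 0.87 above KO DN3 without a call (0.0589). The call against WT was lost without any 1 of the 3 WT arrays (limma adjusted p from 0.0567 without WT DN3 3 to 0.0947 without WT DN3 1 and 0.0995 without WT DN3 2). Spred2 lost its call against WT without WT DN3 1 (0.0635). The remaining 2 of the 6, Dusp6 (0.66; limma adjusted p = 0.0461) and Ier2 (0.45; limma adjusted p = 0.0451), were named after their values were seen. Each kept its call in 2 of the 9 fits that left out 1 array. The Sprouty genes Spry1, Spry2 and Spry4, which also brake ERK signalling, were not called.

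The lymphomas at the ends of the Etv5 range were also looked up in the ERK genes. Lymphoma 4, the highest in Etv5, was the highest lymphoma in 6 of the 18 genes, more than any other. Lymphoma 5, the lowest in Etv5, was the lowest in 1 of them, and lymphoma 6 in 8. The gene in which lymphoma 5 was lowest was Dusp6, at 5.40, within the KO DN3 range of 5.33 to 5.61. Lymphoma 6, with Etv5 at 8.27, was also within that range in Dusp6, at 5.56. Phlda1 in lymphoma 5 was 7.58 and Egr1 was 6.95, both above every DN3 array. A link between Etv5 and the ERK genes was not tested.

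**Figure D4:**
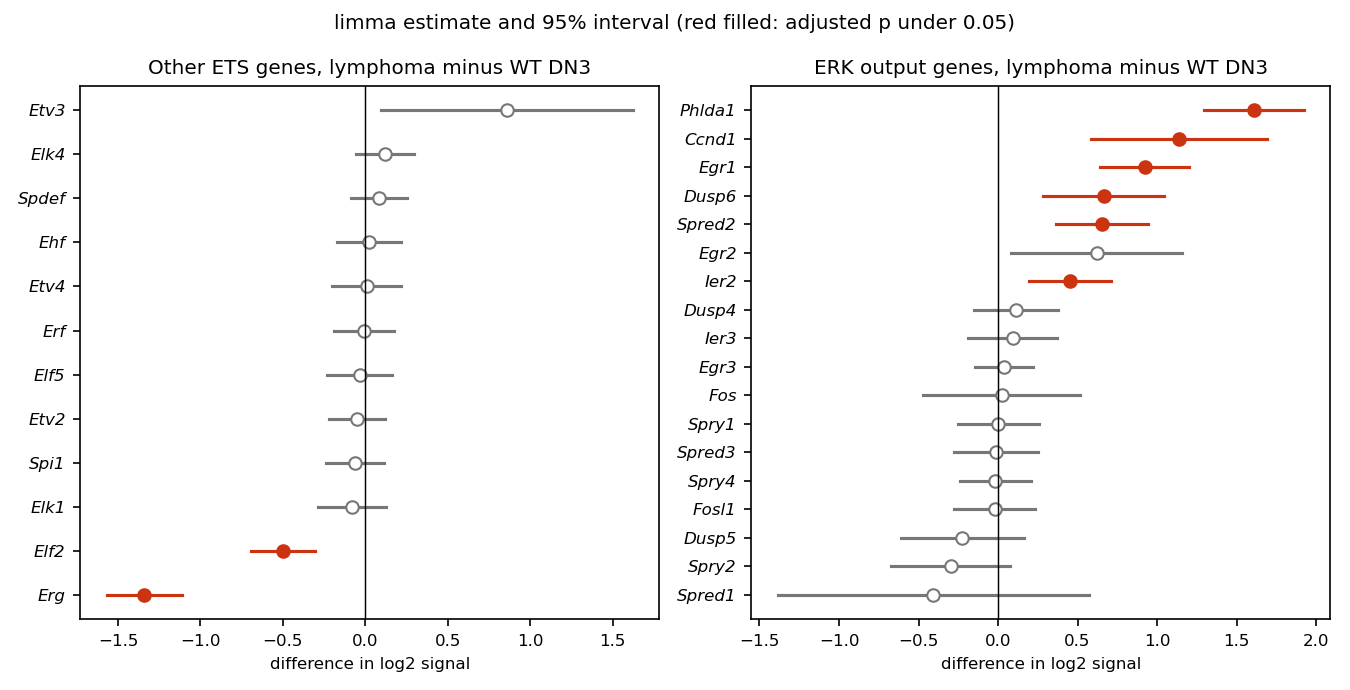
Difference in log2 signal between lymphoma and WT DN3 (horizontal axis) with 95% intervals for the 12 tested other ETS genes (left) and 18 ERK output genes (right); red filled points had a limma adjusted p under 0.05. Erg (-1.34) and Elf2 (-0.50) are the called ETS genes, both lower, and the 6 called ERK genes are all higher.

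Genes that ETS factors are known to regulate in blood cells were tested as a list of 16. In KO DN3 cells 1 fell, beside 1.99% of all genes called. Against WT 2 fell and 1 rose in the lymphomas, beside 5.82%, and against KO DN3 1 fell and 1 rose, beside 6.62%. Il7r, the interleukin-7 receptor chain and a target of GABP, fell by 1.01 in KO DN3 cells, from 8.63, 8.76 and 8.72 to 7.73, 8.06 and 7.29 (limma adjusted p = 0.0149). The call was lost without WT DN3 2 (0.0935) or WT DN3 3 (0.0627), and in 1 fit to all 12 arrays (0.311). In the lymphomas it fell by 2.30 against WT (limma adjusted p = 0.0105) and was lower on each lymphoma than on each WT array, although lymphoma 3 at 8.26 was above every KO DN3 array. That call was lost without WT DN3 2 (0.0593) or WT DN3 3 (0.0542).

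Bcl2, which protects thymocytes from apoptosis, fell by 1.13 against WT (limma adjusted p = 0.00482) and by 0.92 against KO DN3 (limma adjusted p = 0.0239). The call against KO was lost without KO DN3 1 (0.0551), KO DN3 2 (0.0714) or KO DN3 3 (0.0798). Il2rb, the beta chain of the interleukin-2 and interleukin-15 receptors and an Ets1 target, rose by 0.93 against WT (limma adjusted p = 0.00498) and by 0.86 against KO (limma adjusted p = 0.0126). The latter call was lost without KO DN3 3 (0.0752). All 6 lymphomas were above all 6 DN3 arrays in Il2rb (5.43 to 6.41 against 4.95 to 5.21), and its DN3 values lay just above the filter level of 4.78. Of all genes tested, 10.3% had no overlap between lymphoma and WT arrays and 13.6% none between lymphoma and KO DN3 arrays. A link between Ets1 and Il2rb was not tested.

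Likeness of pattern was measured for each called member as Pearson's r with every gene tested over the 12 arrays, which share groups and array sets, and is given as a description. The genes most like Ets1 were Rnf145 (r = 0.96), Coro7 (0.96) and Chd7 (0.96). St6gal1 (0.95), Pigq (0.93) and Zfp36 (0.92) were most like Etv5. Etv6 was most like Ints4 (0.95), Zfp950 (0.93) and Zfr (0.91), and after the group means were removed these 3 still had r of 0.94, 0.85 and 0.93. Spib was most like Trbv1 (0.95), Kcnh2 (0.92) and S100a10 (0.92), and Elk3 most like Ddit3 (0.93), Akap9 (0.91) and Zfp626 (0.91). After the group means were removed, S100a10 kept an r of 0.33 and Akap9 one of 0.39, so those likenesses rest largely on the differences between groups.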

How the data were processed

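Total RNA from sorted thymic cells was amplified with a NuGEN Pico system and hybridised to 12 arrays, per the labels' protocols. The authors deposited 1 log2 signal per row and array, and the submitters' processing notes name Partek and RMA for their normalisation, without versions. The base of the log is not stated and was taken as 2 from the range of the values. Of 35556 rows, 21789 carry 1 gene symbol, 1621 several and 12146 none in the platform annotation, and 21698 matched RefSeq (GRCm38.p6). The highest-mean row stood for each of the 999 genes with several. Genes with a mean under the 25th percentile (4.78) were left out (4985), which left 14953.

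Each comparison was fitted to its own 2 groups with lmFit and eBayes in limma 3.58.1 (R 4.3.3), two-sided, with Benjamini-Hochberg adjustment over all genes tested. The fit was tested on simulated data. pandas 2.3.3, numpy 2.4.6 and matplotlib 3.10.9 made the summaries and plots. Alternatives were centring, scaling, filters, row choice, variance model, arrays in the fit, array weights, array set, sex, replicate number as a block and leaving out each array. The number of arrays limits the precision. The main fits had no block. Same-numbered WT and KO DN3 arrays deviated together (r = 0.51, 0.42 and 0.25), so the alternative with a block took the number to pair them. The highest r was between WT DN3 1 and KO DN3 1, which both belong to the set of 4 arrays that stood apart. That pairing is an assumption drawn from these same data, and the labels do not state it. Between a lymphoma and the DN3 arrays with its number, r ran from -0.26 to 0.44, and no pairing was assumed.

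Text names all 10 members, other ETS genes that were called, up to 4 called genes per list and comparison, the 3 genes most like each called member, and markers beside a result. Ier2, Dusp6 and uncalled genes outside the members were singled out with their values known. The members and lists were chosen with earlier results of these data known. The deleted gene is not analysed here.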

Additional observations from a re-analysis of the deposited data

Results flagged for a closer look

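Lymphoma 3 stood apart from the other lymphomas in Il7r, with a log2 signal of 8.26 where the other 5 lay between 5.67 and 6.54. Its gap to the nearest lymphoma was 0.665 of the range of the group, above the 0.625 that Dixon's test sets for 6 samples. This was 1 gap among 44 looked at, the highest and lowest lymphoma of 22 genes. Chance gives such a gap, at either end, in about 1 gene in 20. Without lymphoma 3 the fall of Il7r against WT DN3 was larger, at -2.67.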

How the results depend on the processing

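Of 10 members, 2 were called in KO against WT DN3, 3 in lymphoma against WT and 4 in lymphoma against KO. In KO against WT the count was 0 after repeated quantile normalisation, 1 with 1 fit to all 12 arrays, 1 with sex as a term, 0 in the larger array set alone, and 0 to 2 with 1 array left out. Against WT it was 1 with the replicate block, 0 in the larger and 1 in the smaller set, and 1 to 3 with 1 array left out. Against KO it was 1 in the larger and 1 in the smaller set, and 2 to 4 with 1 array left out. In the smaller set the lone DN3 array was assumed to vary like the lymphomas. In KO against WT the only male array was KO DN3 3, so the sex term gave the same result as leaving that array out. As all WT arrays were female, the sex term in lymphoma against WT set only the female lymphomas 3, 4 and 5 against WT. Over all genes, the 298 calls of KO against WT became 1380 with the replicate block, 754 with the array set as a term and 472 with array weights. They became 126 with sex, 144 in the larger set and 57 to 443 with 1 array left out. The 871 against WT became 549 and 240 in the larger and smaller set, and 560 to 872 with 1 array left out. The 990 against KO became 1702 with the array set as a term, 325 and 262 in the larger and smaller set, and 431 to 1361 with 1 array left out. No replicate block changed a call of Elk3 or Etv6 in KO against WT DN3, and it added Etv5. For the lymphomas, whose numbers do not pair with DN3, the block lost Ets1 and Spib against WT and Ets1 against KO. It added Etv6 against KO (0.56). No DN3 array has the numbers 4, 5 or 6, so these block fits rest on lymphomas 1, 2 and 3 alone. Of the calls of related genes, 9 of 19 were lost in the larger set alone and 11 of 17 in the smaller, with no change of sign. The sign turned under some alternative for 11 differences, none of them called in any of the 47 fits concerned. In KO against WT, repeated quantile normalisation gave Ets1 0.042, Elf1 0.08 and Gabpa 0.005, and leaving out 1 array gave ranges of -0.161 to 0.002, -0.136 to 0.02 and -0.157 to 0.019. In lymphoma against WT, Elf1 was -0.002 after median centring, -0.013 after quantile normalisation, -0.043 with the replicate block and -0.026 in the larger set. Fli1 was 0.054 with sex as a term, Elk3 was 0.109 with the block, and the smaller set gave Etv6 0.096, Fli1 0.016, Elk3 0.146 and Gabpa 0.044. With 1 array left out, Elf1 ran from -0.084 to 0.066, Fli1 from -0.138 to 0.082, Elk3 from -0.059 to 0.031 and Gabpa from -0.07 to 0.04. In lymphoma against KO, quantile normalisation gave Elf1 -0.093, Elf4 -0.141 and Gabpa -0.057. Elf4 was -0.064 for the mean of its rows, -0.004 with array weights, -4e-05 with the block and -0.091 in the smaller set. Elf1 was -0.001 with the block and Gabpa -0.012 in the larger set. With 1 array left out, Elf1 ran from -0.01 to 0.084, Elf4 from -0.068 to 0.044 and Gabpa from -0.036 to 0.141. The causes of these changes were not tested. Fits to a single set or with 1 array left out also hold fewer arrays.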
